A study of Mus musculus with 8 samples.

Results

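The genes described here are 7 core components of the RAS/RAF/MEK/ERK pathway, chosen by name among the 45706 genes of the count tables: Nras and Hras, Araf and Braf, Map2k1 and Map2k2, and Mapk3. The first 6 form 3 pairs of paralogs, and each pair was read for the share that either gene takes in small intestinal (SI) and in colonic (COL) crypts. Mapk3 has no partner among them. Other genes of these tiers are not analysed here, so a share is a share of the pair and not of the whole tier. RNA-Seq was performed on crypts, the epithelial pockets that house the stem and progenitor cells of the gut. They came from 4 wild type C57BL/6N donor mice (mice 1, 2, 3 and 5, of which 1 and 5 are female and 2 and 3 male), with no treatment and with no age given in the labels. Each mouse gave 1 SI and 1 COL library, named SI1 to SI4 and COL1 to COL4, where SI4 and COL4 are from mouse 5.

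RAS proteins are small membrane-bound GTPases that switch on when a growth factor receptor is stimulated. Active RAS recruits RAF kinases, which phosphorylate the MEK kinases, which in turn phosphorylate ERK. In the crypt this cascade carries the EGF signal that keeps the dividing cells in cycle, and paralogs of a tier share their catalytic core while differing in regulation and localization.

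The libraries held 15969428 to 32908060 counts. All 6 SI marker genes were higher in SI and all 6 colon marker genes higher in COL by the test used below. The summed epithelial markers reached 7277 to 13760 CPM (counts scaled by the TMM-normalized library size) in SI and 3588 to 8826 CPM in COL. Of these epithelial markers, Vil1 (mean 3552 CPM in SI against 373 CPM) and Cldn7 were called higher in SI and Krt18 higher in COL. Epcam, Cdh1 and Krt8 were not called. The markers of fibroblasts and smooth muscle, of endothelium and of macrophages summed to at most 11.2, 11.3 and 11.6 CPM in any library, and those of enteric glia to at most 3.54 CPM. Paneth cell markers summed to 564 to 3965 CPM in SI and 17.9 to 83.0 CPM in COL, goblet cell markers to 2173 to 7371 and 11560 to 22030 CPM, and lymphocyte markers to 37.8 to 103 and 10.4 to 37.0 CPM. Of the Paneth cell markers, 5 were called higher in SI and Ang4 was not called (mean 26.6 CPM in SI against 30.9 CPM in COL). Ang4 gave 68.85 of the 82.96 CPM of that sum in COL1 and 10.62 of the 30.7 CPM in COL4. Of the 6 goblet cell markers, Muc2, Agr2 and Spdef were called higher in COL and the other 3 were not called. Among these 3, the mean was higher in SI for Tff3 (668 against 369 CPM) and Fcgbp (2383 against 1504 CPM). For Clca1 it was higher in COL (677 CPM in SI against 1167 CPM). Crypt base stem cell markers summed to 35.65 to 379.5 CPM in SI and 211 to 324 CPM in COL, and proliferation markers to 103.8 to 498 and 365 to 633.5 CPM, with SI1 the lowest library for both. The stem cell sum joins genes of opposite direction. Olfm4 was called higher in SI (mean 151 against 0.93 CPM) and Slc12a2 higher in COL (40.9 CPM in SI against 207 CPM). The other 4 were not called, and Lgr5 and Ascl2 among them were lower in SI without overlap. The part of these cell types in the differences between the tissues was not tested, and in bulk RNA fewer cells of a type cannot be told apart from less RNA per cell. The mitochondrial share of the counts was 4.83% to 7.35% in SI1, SI4, COL3 and COL4, called here the low class. It was 22.7% to 50.8% in the high class, which is SI2, SI3, COL1 and COL2. In SI this division coincides with the sex of the mice, in COL it does not. The SI markers, of which all but the transcription factor gene Gata4 are genes of mature absorptive cells, summed to 43120 and 53390 CPM in the low and 27710 and 28970 CPM in the high SI libraries, and the colon markers to 18070 and 34030 CPM in the low and 5833 and 7617 CPM in the high COL libraries.

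The sequence shared by paralogs decides how well their reads can be assigned. The longest identical run between the transcripts with the longest coding sequence was 23 bases for Nras and Hras, 17 for Araf and Braf and 56 for Map2k1 and Map2k2 (GENCODE vM21). The last is shown with 20 bases on either side, since it is the one place in the 3 pairs where a 50-base stretch occurs in both paralogs. The capitals mark the shared run, which covers codons 131 to 149 of Map2k1 and 135 to 153 of Map2k2 and spans the junction of exons 3 and 4 of either transcript.
Map2k1: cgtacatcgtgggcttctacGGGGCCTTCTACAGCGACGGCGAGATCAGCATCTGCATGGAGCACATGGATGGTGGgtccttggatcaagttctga
Map2k2: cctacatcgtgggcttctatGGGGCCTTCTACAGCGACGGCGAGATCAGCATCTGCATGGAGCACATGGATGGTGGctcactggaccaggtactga
In GRCm38, the assembly of mm10, the run lies at chr9:64212584-64212631 and chr9:64205181-64205188 (minus strand) for Map2k1, and at chr10:81115125-81115172 and chr10:81118152-81118159 (plus strand) for Map2k2. Of all 50-base stretches of the 7 transcripts, at most 1.0% (Braf, through its overlap with Ndufb2 on the opposite strand) are found in transcripts of other genes too. None of the 7 genes shares more than 1.05% of its exonic bases with another gene.

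By edgeR's quasi-likelihood test, no member passed an adjusted p of 0.05 in the comparison of SI with COL, in which 28.4% of the 14491 genes tested were called (15.5% higher in SI and 12.9% higher in COL). All 7 passed the filter on low counts, with 241 to 8434 counts in every library. At an unadjusted p below 0.05 there were 2 of the 7, Nras and Map2k2, against 39.8% of all genes. DESeq2 and limma-voom, which called 35.3% and 32.4% of all genes, also called none of the 7. The SI and COL values did not overlap for 1 gene, Map2k2, against 33.5% of all genes. Scaling by library size alone called 2 of the 7, Hras and Braf, and 40.7% of all genes. It shifted the log2 fold changes of all genes from a median of -0.09 to one of -0.82 and the split of the calls from 2253 higher in SI and 1863 higher in COL to 1115 and 4788. Relative to that median, Hras and Braf were at -0.11 and -0.030. Each log2 fold change below is SI minus COL on the TMM scale, with a positive value standing for a higher level in SI.

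**Figure D1:**
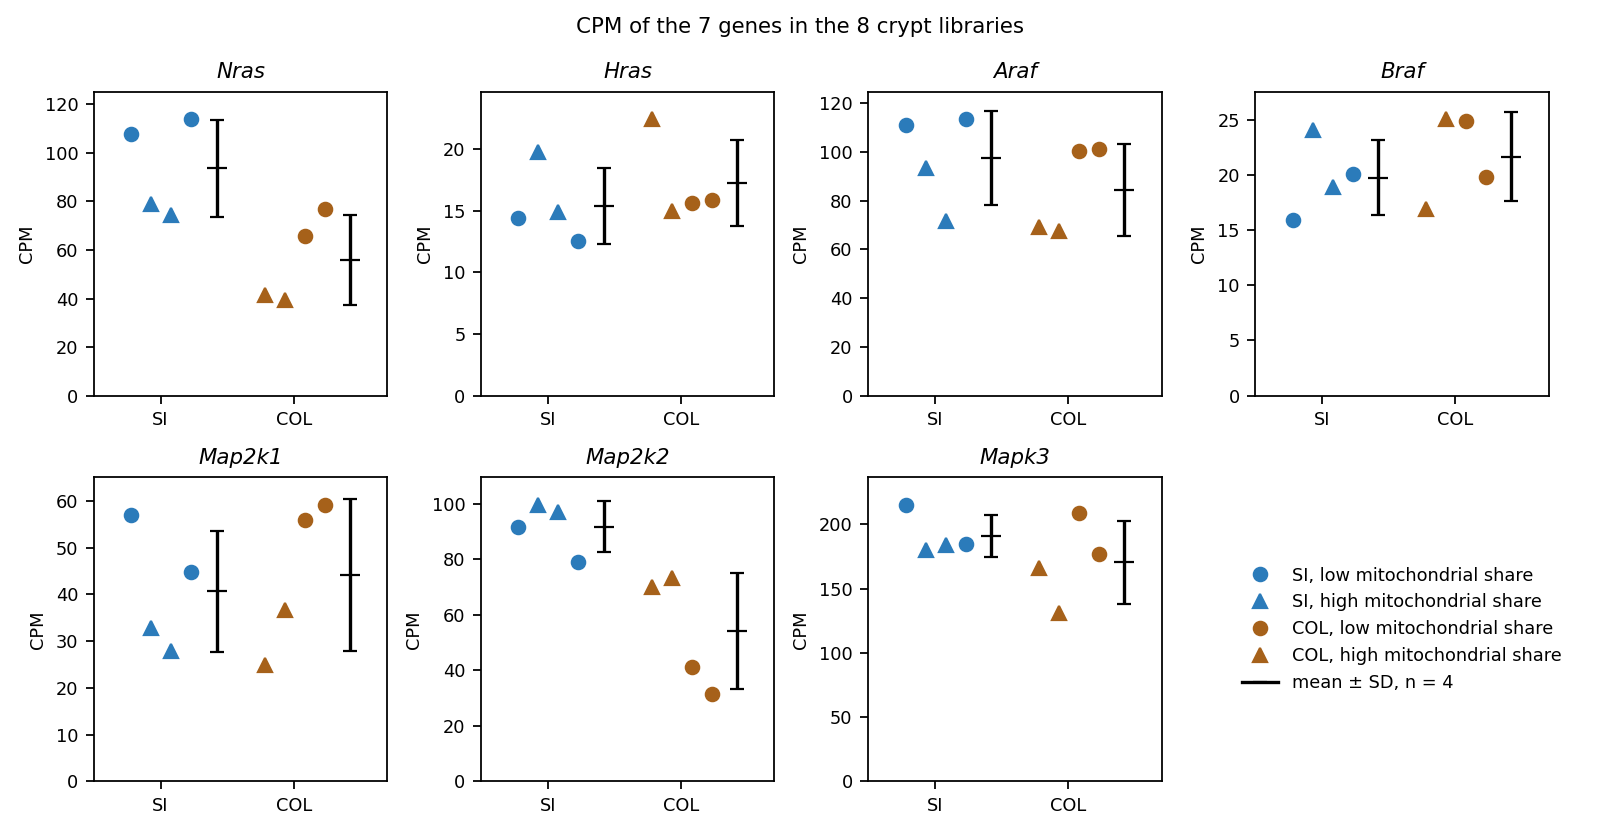
CPM of each gene (vertical axis, from 0) in the 4 SI and 4 COL libraries, with circles for the low and triangles for the high mitochondrial class and the mean ± SD of the 4 libraries beside them. Map2k2 is the gene whose tissues do not overlap, with a lowest SI value of 79.1 CPM and a highest COL value of 73.5 CPM.

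Nras (ENSMUSG00000027852, chromosome 3 from 103058285 to 103067914) encodes a RAS GTPase that is palmitoylated and cycles between the Golgi and the plasma membrane. Its level was 108, 79.0, 74.3 and 114 CPM in SI1 to SI4 and 41.6, 39.3, 65.7 and 77.1 CPM in COL1 to COL4. SI3 lay below COL4, the highest COL library, and both tissues were lower in their high than in their low mitochondrial class. SI averaged 93.7 ± 19.9 CPM against 55.9 ± 18.5 CPM for COL (SD, n = 4), and the SI library was above the COL library in all 4 mice. The log2 fold change was 0.74 (standard error 0.30, 95% interval 0.08 to 1.40) and did not pass the test (edgeR, adjusted p = 0.0873).

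Hras (ENSMUSG00000025499, chromosome 7 from 141189105 to 141194005), the other palmitoylated RAS gene of the pair, was read much less often. It had 14.4, 19.8, 14.9 and 12.5 CPM in SI1 to SI4 and 22.4, 14.98, 15.6 and 15.9 CPM in COL1 to COL4. Apart from COL1, the COL libraries lay within the range of SI. The log2 fold change was -0.16 (standard error 0.26), and the 95% interval, from -0.74 to 0.41, leaves room for a moderate difference in either direction.

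The balance of the RAS pair was compared per length. Divided by the length of the transcript with the longest coding sequence, Nras reads made up 82.5%, 71.7%, 75.9% and 85.2% of the pair in SI1 to SI4 and 54.1%, 62.4%, 72.7% and 75.5% in COL1 to COL4. Nras was thus the larger part in all 8 libraries and came nearest to parity in COL1. The SI share averaged 78.8% ± 6.17 against 66.1% ± 9.82 for COL (SD, n = 4). Expressed as a ratio, which does not depend on how libraries are scaled, Nras over Hras was higher in SI by 0.94 on the log2 scale, or 1.92-fold, and higher in SI in 4 of 4 mice. SI2 lay below COL3 and COL4, and the difference did not pass the test (two-sided exact permutation test, p = 0.114, adjusted p = 0.314 over the 3 pairs).

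The mitochondrial class separated the libraries within each tissue. Nras over Hras was lower in the high than in the low class by 0.89 on the log2 scale in SI and by 1.03 in COL. Within the high class, SI exceeded COL by 1.02 on the log2 scale (2.02-fold), and within the low class by 0.87 (1.83-fold), with no overlap between the tissues in either class of 2 against 2 libraries. The exact permutation test within classes gave p = 0.0556, which is the smallest p that this design allows. With the mitochondrial class as a covariate in edgeR's fit, Nras was higher in SI by 0.78 on the log2 scale (standard error 0.18, 95% interval 0.38 to 1.17, adjusted p = 0.00676), in a fit that called 37.3% of all genes (20.5% higher in SI) and 2 of the 7, Nras and Map2k2. Hras, whose log2 fold change in that fit was -0.17 (standard error 0.22), was not called (adjusted p = 0.587).

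**Figure D2:**
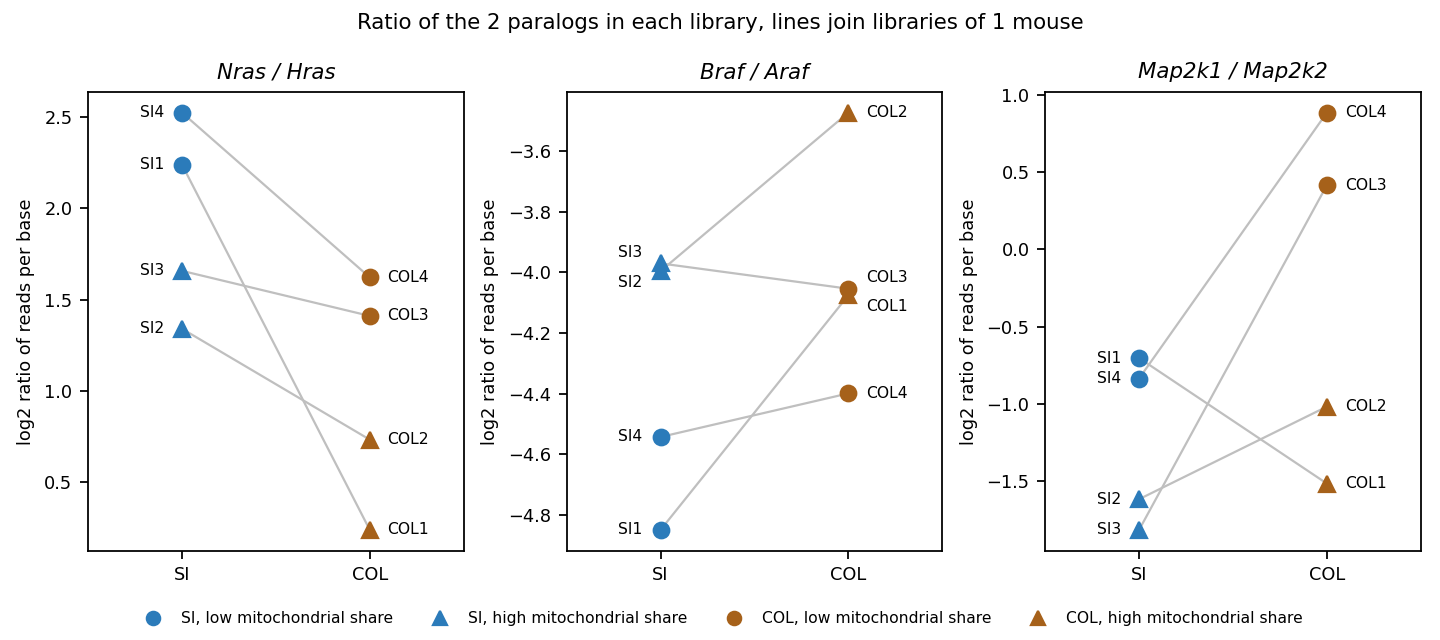
log2 ratio of the reads per base of the 2 paralogs of each pair (vertical axis, own scale per panel) in the SI and COL libraries, with grey lines joining the libraries of 1 mouse and triangles for the high mitochondrial class. Within circles and within triangles, every SI library lies above every COL library for Nras over Hras and below it for Map2k1 over Map2k2.

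Araf (ENSMUSG00000001127, chromosome X from 20797814 to 20860519) encodes a RAF kinase with low basal activity. It had 111, 93.2, 71.8 and 113 CPM in SI1 to SI4 and 69.1, 67.4, 100.4 and 101 CPM in COL1 to COL4. The tissues overlapped widely, and the high mitochondrial libraries were the lower ones in both. Within each class the SI libraries lay above the COL libraries, by 0.26 on the log2 scale in the high and 0.15 in the low class. With the class as a covariate Araf was not called (log2 fold change 0.21, edgeR, adjusted p = 0.374). The log2 fold change was 0.20 (standard error 0.27, 95% interval -0.40 to 0.80), and the gene was not called (edgeR, adjusted p = 0.620). Araf is X-linked. In COL the libraries from females had 69.1 and 101 CPM and those from males 67.4 and 100.4 CPM. In SI the libraries from females had 111 and 113 CPM and those from males 93.2 and 71.8 CPM, where sex and mitochondrial class cannot be told apart. A difference between the sexes was not tested.

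Braf (ENSMUSG00000002413, chromosome 6 from 39603237 to 39725463) encodes the RAF kinase with the highest basal activity. It had 15.9, 24.1, 18.9 and 20.1 CPM in SI1 to SI4 and 16.9, 25.05, 24.9 and 19.8 CPM in COL1 to COL4. Both tissues spanned nearly the same range. The 95% interval of the log2 fold change ran from -0.69 to 0.42.

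Per length, Braf was the minor partner of Araf in all 8 libraries. It made up 3.35%, 5.90%, 6.00% and 4.11% of the pair in SI1 to SI4 and 5.60%, 8.27%, 5.68% and 4.52% in COL1 to COL4. The long Braf transcript of 9728 bases, against 2358 bases for Araf, enters this figure, and with the length of all annotated exons the mean Braf share was 8.99% in SI and 11.1% in COL in place of 4.84% and 6.02%. Braf was therefore a small part of the pair by either length. The log2 ratio of Braf over Araf was lower in SI by 0.34 in absolute size, in 3 of 4 mice, and did not pass the test (two-sided exact permutation test, p = 0.314, adjusted p = 0.314 over the 3 pairs). Within the mitochondrial classes the difference was -0.21 in the high and -0.47 in the low class (exact permutation test within classes, p = 0.167).

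Map2k1 (ENSMUSG00000004936, chromosome 9 from 64185770 to 64253631) encodes MEK1, which together with MEK2 phosphorylates ERK. It had 56.9, 32.9, 27.9 and 44.9 CPM in SI1 to SI4 and 24.8, 36.7, 55.8 and 59.1 CPM in COL1 to COL4. The 4 highest libraries were the 4 of the low mitochondrial class, from both tissues. The log2 fold change between the tissues was -0.12 (standard error 0.34, 95% interval -0.86 to 0.62). Its sign differed among the mice, from 1.20 in mouse 1 to -1.002 in mouse 3. In both of these mice the SI and COL libraries are of different mitochondrial classes.

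Map2k2 (ENSMUSG00000035027, chromosome 10 from 81105915 to 81133975) encodes MEK2. It had 91.5, 99.6, 97.0 and 79.1 CPM in SI1 to SI4 and 70.2, 73.5, 41.3 and 31.6 CPM in COL1 to COL4. The tissues did not overlap, and COL3 and COL4, of the low mitochondrial class, were the lowest of the 8. SI averaged 91.8 ± 9.12 CPM against 54.1 ± 20.9 CPM for COL (SD, n = 4), and SI was higher in all 4 mice. The log2 fold change of 0.76 (standard error 0.31, 95% interval 0.09 to 1.44) did not pass edgeR's test (adjusted p = 0.0870). Blocking on the mouse gave an adjusted p for Map2k2 of 0.0611 in edgeR (28.1% of all genes called) and of 0.0415 in limma-voom (32.5%), and edgeR with the mitochondrial class as a covariate gave 0.0136 (log2 fold change 0.84, standard error 0.22). Without COL2, edgeR gave 0.0488, in a fit that called 29.6% of all genes.

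The composition of the MEK pair varied more among COL libraries than that of the other pairs. The SD of its log2 ratio in COL was 1.14, against 0.64 for Nras over Hras and 0.39 for Braf over Araf. In SI the SD was 0.56, near the 0.54 of Nras over Hras and the 0.43 of Braf over Araf. Per length, Map2k1 made up 38.0%, 24.6%, 22.1% and 35.9% of the pair in SI1 to SI4 and 25.9%, 33.05%, 57.2% and 64.9% in COL1 to COL4. By this length Map2k2 was the major partner in all 4 SI libraries and in COL1 and COL2, while Map2k1 was the major one in COL3 and COL4. The Map2k1 share averaged 30.2% ± 7.98 for SI against 45.2% ± 18.7 for COL (SD, n = 4). Map2k1 over Map2k2 differed by -0.94 on the log2 scale, in that direction in 3 of 4 mice, and the tissues overlapped (two-sided exact permutation test, p = 0.257, adjusted p = 0.314 over the 3 pairs). By the length of all exons the mean Map2k1 share was 41.9% in SI and 56.9% in COL, and Map2k1 was at 50.9% in SI1. The choice of length leaves the difference in the log2 ratio as it is.

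Inside the mitochondrial classes the MEK tissues did not overlap. Map2k1 over Map2k2 was lower in SI by a log2 difference of -0.45 in the high class and -1.42 in the low class (exact permutation test within classes, p = 0.0556, the smallest this design allows). The class itself went with the ratio in both tissues, since the high libraries lay below the low ones by a log2 difference of -0.95 in SI and -1.92 in COL. In COL both genes entered this gap: Map2k1 was lower (-0.93) and Map2k2 higher (0.99) in the high class. In SI the values were -0.74 for Map2k1 and 0.21 for Map2k2. The part of mature cell content, RNA quality or sex in these gaps was not tested.

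Mapk3 (ENSMUSG00000063065, chromosome 7 from 126759601 to 126765819) encodes ERK1, the kinase at the end of the cascade. It had 215, 180.0, 184 and 185 CPM in SI1 to SI4 and 166, 131, 209 and 177 CPM in COL1 to COL4. SI2, SI3 and SI4 lay within the range of COL. The log2 fold change was 0.16 (standard error 0.27, 95% interval -0.43 to 0.75), and the gene was not called (edgeR, adjusted p = 0.697).

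**Figure D3:**
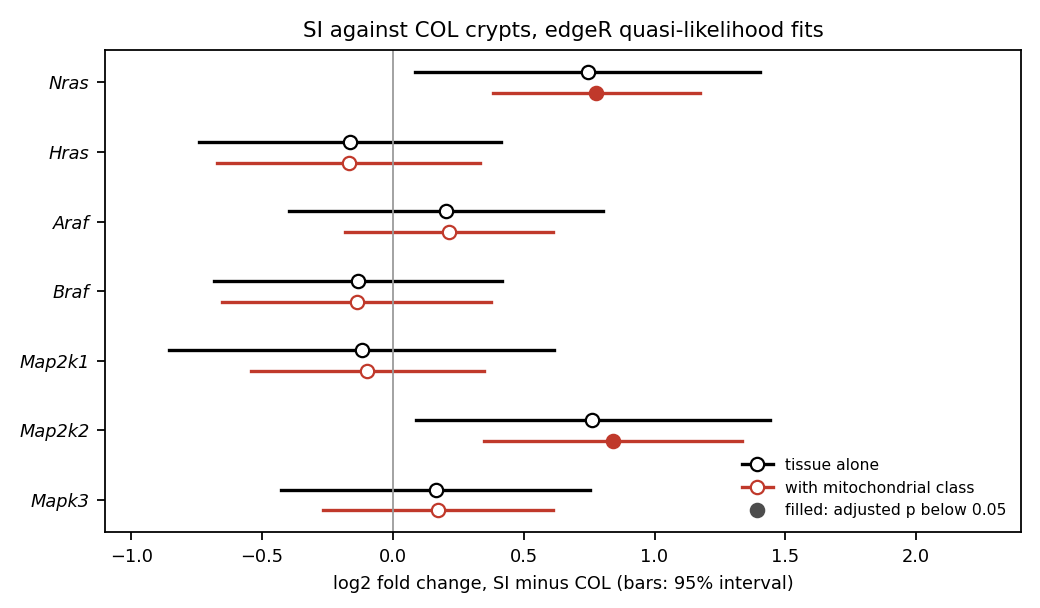
log2 fold change of SI minus COL for the 7 genes (horizontal axis) with 95% intervals, from edgeR's fit on tissue alone (black) and with the mitochondrial class as a covariate (red), filled where the adjusted p is below 0.05. Nras and Map2k2 lie near 0.75 in the first fit and are filled in the second, where the intervals are narrower.

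Compared per length of the transcript with the longest coding sequence, the order of the 7 genes differed between the tissues by 1 exchange of neighbours. Mapk3 was the highest, at 106 ± 9.01 CPM per kb of transcript in SI and 94.7 ± 17.9 in COL (SD, n = 4). Hras and Braf were the lowest in both, with Hras at 5.44 ± 1.09 and 6.09 ± 1.23 and Braf at 2.03 ± 0.35 and 2.23 ± 0.41 CPM per kb. Between them, Araf had 41.3 ± 8.18 CPM per kb in SI and 35.9 ± 7.999 in COL, Map2k2 38.2 ± 3.79 and 22.5 ± 8.67, Nras 21.0 ± 4.45 and 12.5 ± 4.14, and Map2k1 16.7 ± 5.33 and 18.1 ± 6.65. The order of Nras and Map2k1 was the one that changed place, Nras being above Map2k1 in 4 of 4 SI libraries and below it in 4 of 4 COL libraries. Among neighbours in the order, Araf and Map2k2 as well as Nras and Map2k1 had overlapping ranges in SI, and in COL the ranges of Araf, Map2k2, Map2k1 and Nras each overlapped with the next. This order depends on the length used. With the length of all exons it became Mapk3, Nras, Map2k2, Araf, Map2k1, Hras and Braf in SI and Mapk3, Map2k1, Araf, Nras, Map2k2, Hras and Braf in COL, so that the places of Mapk3, Hras and Braf were the same by both lengths and the middle of the order was not.

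**Figure D4:**
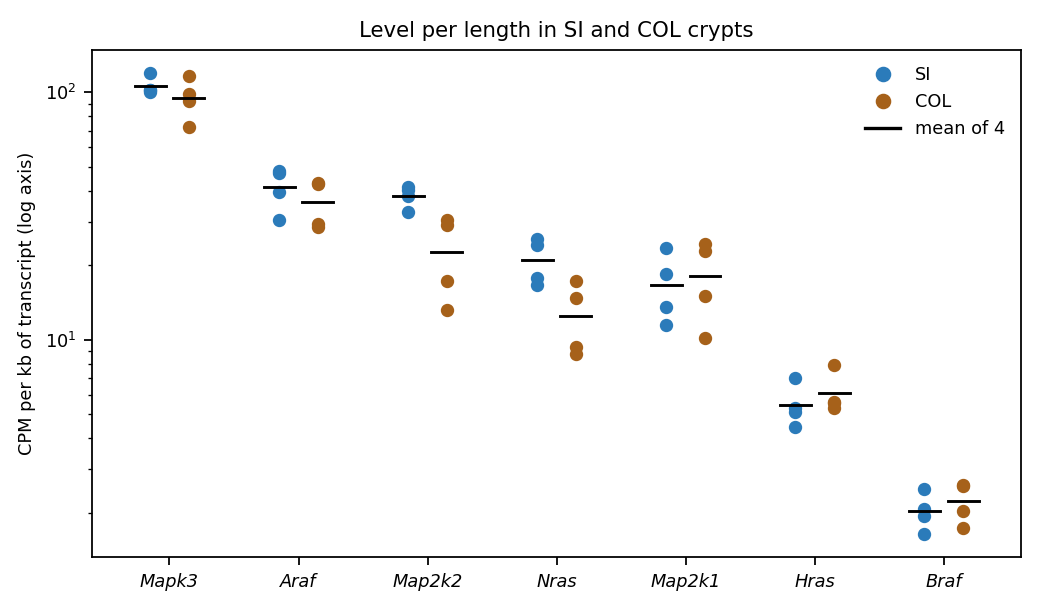
CPM per kb of transcript (vertical axis, logarithmic) of the 7 genes, ordered by their mean in SI, with a point per library and a line at the mean of 4. Mapk3 lies at 72.5 to 119 and Braf at 1.63 to 2.57 CPM per kb, with the other 5 between them.

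The level of a pair as a whole can be set beside its composition. Summed per kb, the MEK pair had 51.3 to 61.4 CPM per kb in SI and 37.4 to 45.6 in COL, without overlap, and the mean of Map2k2 was higher in SI than in COL while that of Map2k1 was slightly lower. The RAS pair had 21.9 to 29.9 in SI and 14.1 to 22.9 in COL, and the RAF pair 32.4 to 50.1 and 31.0 to 45.1. Mapk3 per unit of the MEK pair was 1.82 to 2.00 in SI and 1.59 to 2.89 in COL, with a mean of 1.93 ± 0.08 and 2.36 ± 0.56 (SD, n = 4). These sums are a description on the TMM scale, with no test, and a separation of the tissues in them depends on that scale. By library size alone the log2 fold change was -0.89 for Map2k1 and 0.050 for Map2k2, against a median of -0.82 for all genes. On the TMM scale 33.5% of all genes tested had no overlap between the tissues.

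Across the 8 libraries the log2 levels of the members were related to each other in different ways, given here as a description over libraries that share 2 tissues and 4 mice. Araf followed Nras (Pearson's r = 0.85) and Map2k1 (r = 0.80), while Map2k1 and Map2k2 (r = -0.57) and Nras and Hras (r = -0.56) went in opposite directions within their pairs. Among 3647 genes with a mean log2 CPM of at least 5, those most like Nras were Mapre1, Dolpp1 and Hadha (r = 0.99 each), and those most like Araf were Slc37a3 (r = 1.00), Cnppd1 (r = 0.99) and Commd7 (r = 0.98). Map2k1 was most like Ttc5 (r = 0.98), Vps37c (r = 0.96) and Prr15l (r = 0.95), and Map2k2 most like Chka (r = 0.97), Zc3h15 and Kif5b (r = 0.96 each). Mapk3 was most like Cisd1 (r = 0.98), Fau and Ndufa3 (r = 0.97 each). For Hras, with Uggt1 (r = 0.91), Dgkz (r = 0.88) and Srsf10 (r = 0.86), and for Braf, with Tab1 (r = 0.89), Nr3c2 (r = 0.87) and Fyco1 (r = 0.84), the nearest patterns were less alike.

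Around these 7 genes, 71 other genes of the pathway were read in 6 lists, of which 68 passed the filter. By edgeR's quasi-likelihood test, 17 of them were called as higher in SI and 6 as higher in COL. That is 33.8% against 28.4% of all genes, with a median log2 fold change of 0.13 against -0.09. List by list, in the order below, 38.5%, 12.5%, 40%, 50%, 27.3% and 50% of the tested genes were called. The lists are small, with 6 to 16 tested genes each. Of all genes tested, 15.5% were called higher in SI and 12.9% higher in COL.

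The genes for the processing and trafficking of RAS proteins numbered 13. Of these, 4 were higher in SI and 1 was higher in COL, with a median of 0.35. Lypla1, an acyl-protein thioesterase that removes palmitate from proteins such as Nras and Hras, had 521, 199, 359 and 504 CPM in SI1 to SI4 and 42.9, 41.9, 94.1 and 86.7 CPM in COL1 to COL4. The tissues did not overlap, and the log2 fold change was 2.57 (edgeR, adjusted p = 0.00108). The depalmitoylases of the Abhd17 family went in both directions, with Abhd17a (0.86) and Abhd17c (1.07) higher in SI and Abhd17b (-1.003) higher in COL. Zdhhc9, a palmitoyltransferase of RAS proteins, was higher in SI (1.23). In edgeR's fits with 1 library left out, the call of Abhd17a was lost in 7 of 8 (all but that without SI2, adjusted p up to 0.131), that of Abhd17b without SI2, SI4 or COL1 (up to 0.0846) and that of Zdhhc9 without COL4 (0.0527). The farnesyltransferase subunits Fnta and Fntb and the prenyl-protein protease Rce1 had log2 fold changes of -0.07, -0.03 and -0.02 and were not called. Of the longest-coding Lypla1 transcript, 24.9% of the 50-base stretches occur in other genes. Among the other called genes of the 6 lists, this share was 20.1% for Rps6ka4 and 18.6% for Ywhah. For the rest it was at most 9.46% (Rap1a).

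Of the phosphatase, chaperone and 14-3-3 genes that regulate RAF, 2 of 16 were higher in SI and none higher in COL, with a median of -0.01. Shoc2, the scaffold of a phosphatase complex that removes an inhibitory phosphate from RAF, averaged 83.6 ± 10.5 CPM in SI against 46.1 ± 10.5 CPM in COL (SD, n = 4), with a log2 fold change of 0.86 (edgeR, adjusted p = 0.0260). Ywhah, a 14-3-3 protein, had a log2 fold change of 0.79 (adjusted p = 0.0344). Neither was past the threshold in edgeR when the mouse was a block (adjusted p = 0.0503 for Shoc2 and 0.0563 for Ywhah). Shoc2 also lost its call without SI1, SI4, COL1 or COL4 (adjusted p up to 0.0936) and Ywhah without any library but SI2 (up to 0.102).

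Among the scaffolds and anchors of MEK and ERK, 3 of the 10 tested were higher in SI and 1 was higher in COL, with a median of 0.48. Iqgap2, a scaffold of the IQGAP family, was nearly constant among SI libraries, at 455 ± 6.09 CPM, against 124.6 ± 26.1 CPM in COL (SD, n = 4), with a log2 fold change of 1.87 (edgeR, adjusted p = 0.000726). Its relative Iqgap1, which can bind MEK and ERK, had a log2 fold change of -0.01. Ksr1, the RAF and MEK scaffold, was higher in SI (1.79, or 2.51 without COL2, which had 21.3 CPM against 4.31 to 7.36 CPM in the other COL libraries), and so was the arrestin gene Arrb1 (1.35), which lost the call with the mouse as a block (adjusted p = 0.0527) and without any library but SI2 or SI3 (up to 0.0990). Pea15a, whose product holds ERK in the cytoplasm, was higher in COL (-1.53), where it averaged 12.4 ± 3.86 CPM against 4.31 ± 1.46 CPM in SI. The endosomal anchors Lamtor1, Lamtor2 and Lamtor3, of which the last binds MEK1 and ERK1, had log2 fold changes of -0.13, 0.36 and 0.15 and were not called. Ksr2 and Paqr3 were under the filter, with at most 23 and 9 counts in any library.

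Among the ERK substrates, some paralogs parted between the tissues. Of 12 genes, 3 were higher in SI and 3 were higher in COL, with a median of -0.21. The MAP kinase-interacting kinase Mknk1 was higher in SI (log2 fold change 1.13), where it averaged 19.7 ± 4.02 CPM against 9.01 ± 1.97 CPM in COL. Its paralog Mknk2 was higher in COL (-1.82), where it averaged 105 ± 23.6 CPM against 29.7 ± 7.83 CPM in SI (SD, n = 4). Of the ribosomal S6 kinase family, Rps6ka5 (3.50) and Rps6ka4 (1.12), which encode the MSK kinases of chromatin, were higher in SI, and Rps6ka3 (-0.83), which encodes RSK2, was higher in COL but lost the call without SI2, SI3, COL1 or COL3 (adjusted p up to 0.0592 in edgeR). The transcription factor gene Ets2 was higher in COL (-1.18).

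**Figure D5:**
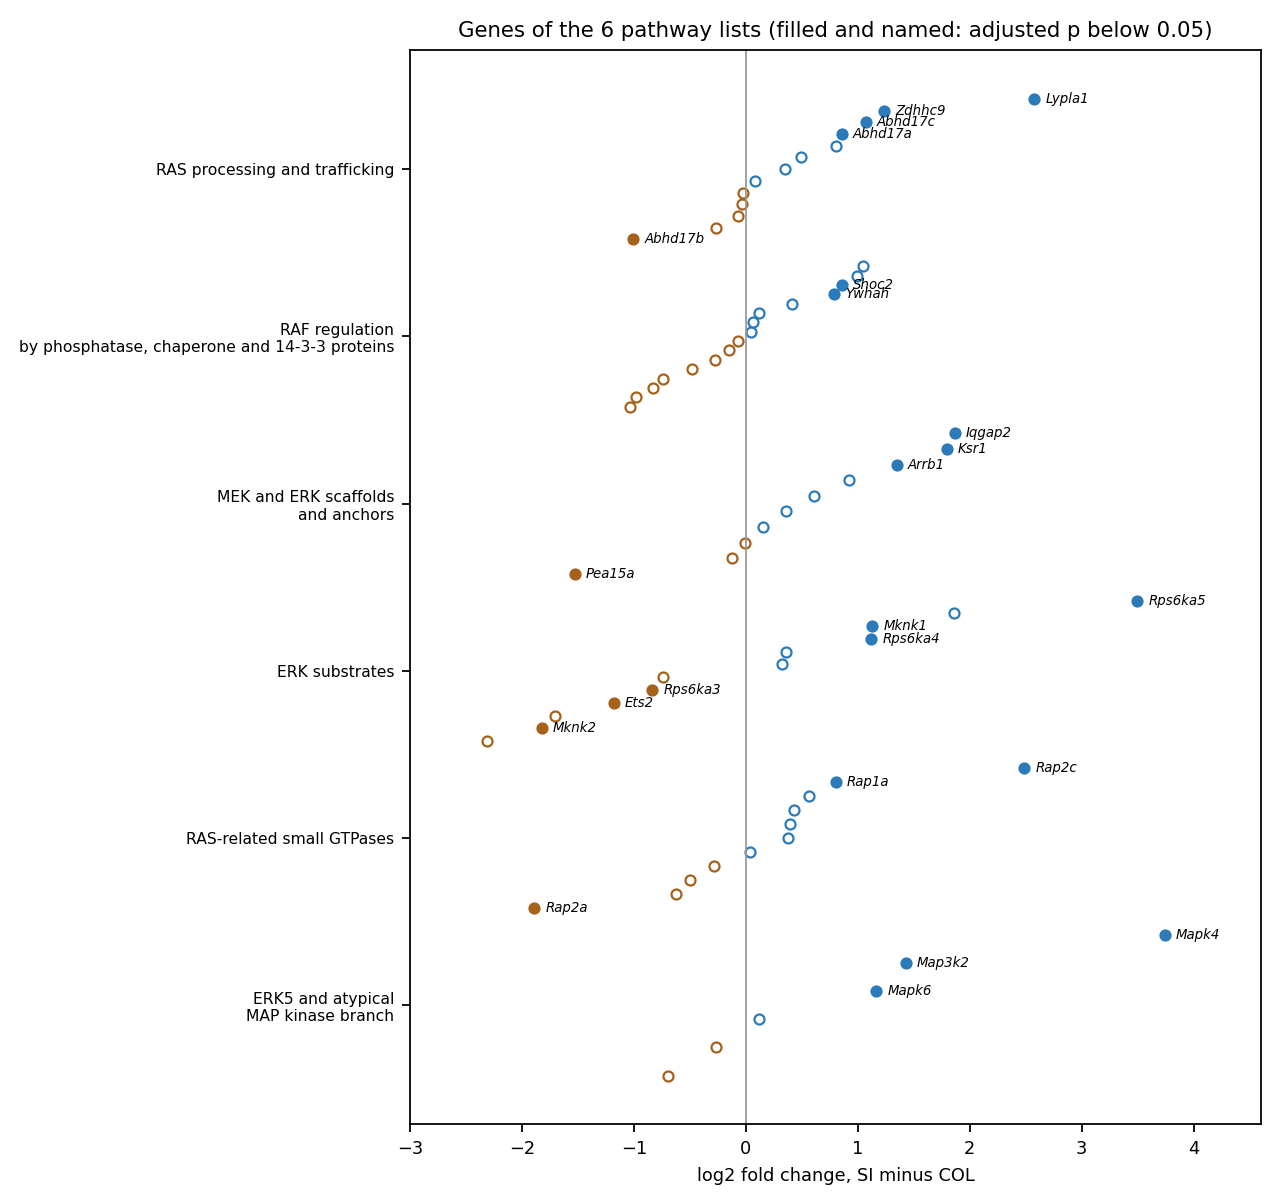
log2 fold change of SI minus COL (horizontal axis) for the tested genes of the 6 lists, 1 row per list and 1 point per gene, filled and named where the adjusted p is below 0.05. Rap2c and Rap2a, and Mknk1 and Mknk2, lie on opposite sides of 0.

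Among the GTPases related to RAS, 2 of 11 were higher in SI and 1 was higher in COL, with a median of 0.38. That is 27.3% called, near the 28.4% of all genes. Rap2c had 92.7, 39.1, 49.1 and 81.5 CPM in SI1 to SI4 and 8.30, 14.98, 10.8 and 12.7 CPM in COL1 to COL4, a log2 fold change of 2.49 (adjusted p = 0.000270). Its paralog Rap2a had 4.76, 5.50, 3.904 and 7.51 CPM in SI1 to SI4 and 20.7, 16.3, 21.8 and 21.4 CPM in COL1 to COL4, a log2 fold change of -1.89 (adjusted p = 0.000641). Neither gene had overlapping tissues. Rap1a, a close RAS relative, was higher in SI (0.80) but lost the call without SI1, SI4, COL1 or COL4 (adjusted p up to 0.103 in edgeR), while Rala, Ralb, Rheb and Rit1 were not called, with log2 fold changes of 0.39, 0.43, 0.03 and -0.50.

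The branch of ERK5 and the atypical MAP kinases had 3 of 6 tested genes higher in SI and none higher in COL, with a median of 0.64. They were Map3k2 (log2 fold change 1.43), a MEK5 activator, and the atypical kinases Mapk6 (1.17) and Mapk4 (3.74), the latter with at most 41 counts in any library. Map2k5 and Mapk7, which encode MEK5 and ERK5 themselves, had log2 fold changes of -0.69 and 0.12 and were not called. Mapk15 was under the filter.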

How the data were processed

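Crypt RNA was sequenced by the authors as paired-end reads, filtered with Trimmomatic (0.36 in the submitters' processing notes), aligned to mm10 and counted per gene with STAR (2.5.2b). They deposited raw counts per Ensembl gene, 1 column per library. The notes also list mm9. The annotation release and the use of strand are not given in the sources used here. Symbols, positions and transcripts are from GENCODE vM21, which holds 45143 of the 45706 identifiers.

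SI was compared with COL by edgeR 4.0.16 (quasi-likelihood test, TMM, filterByExpr, Benjamini-Hochberg adjustment over all 14491 genes tested, threshold 0.05) in R 4.3.3, without a donor term, as the methods name none. Limma, which they name, was an alternative (limma 3.58.1, voom), as were DESeq2 1.42.0 and the settings given in the closing section. The intervals of fold changes use the unshrunk coefficient. Ratios of paralogs were computed from reads per base and compared by exact permutation over the 70 assignments of the 8 libraries, which cannot give a p below 0.0286, or over the 36 within mitochondrial classes, divided at 15% of counts. By counting error alone, the 95% Wilson interval of a share in 1 library was at most 6.95 percentage points wide. The fits were tested on simulated counts.

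SI and COL libraries of a mouse are paired by the donor numbers in the labels. Deviations from the tissue means correlated at -0.24, 0.39, -0.08 and 0.33 across genes within mice 1, 2, 3 and 5. The positive values are from mice 2 and 5, whose SI and COL libraries share a mitochondrial class, while those of mice 1 and 3 do not. The part of the class in these values, or in other differences within mice, was not tested. No 2 libraries of a tissue agreed within sampling noise (chi-square per gene of at least 49.3). Named genes are the 7 members, the called genes of the lists (at most 6 per list) and the 3 most correlated genes of each member. Uncalled list genes named beside them were added after their values were seen. The members, lists and tests were chosen with earlier results of these data known.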

Additional observations from a re-analysis of the deposited data

Results flagged for a closer look

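Of 20 sets of 4 libraries (7 genes and 3 ratios in each tissue), 2 held a library that stood apart from the other 3 by Dixon's ratio of its gap to the whole range, for which chance alone gives about 1 in 20. Hras in COL1, at 22.4 CPM against 14.98 to 15.9 CPM in the other COL libraries, had a ratio of 0.882. Mapk3 in SI1, at 215 CPM against 180.0 to 185 CPM in the other SI libraries, had a ratio of 0.871. The critical value is 0.829.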

How the results depend on the processing

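Of the 7 genes, 2 were called with scaling by library size alone (Hras, -0.93, and Braf, -0.85, which are -0.11 and -0.030 relative to the median of all genes in that fit, where 40.7% of all genes were called), 2 with the mitochondrial class as a covariate (Nras and Map2k2), 1 with limma-voom and the donor block (Map2k2, 0.85), and 0 to 1 with a library left out, the 1 being Map2k2 without COL2 (0.93). With the replicate block (donor mouse) in edgeR none was called, and the log2 fold changes of Nras and Map2k2 were 0.78 and 0.84. Scaling by library size alone turned Nras to -0.037, Araf to -0.56 and Mapk3 to -0.61, which relative to the same median are 0.79, 0.26 and 0.22. Under that scaling Map2k2 fell to 0.050 (edgeR, adjusted p = 0.905), which relative to the same median is 0.87. Map2k1 turned to 0.044 without SI3, 0.021 without COL3 and 0.063 without COL4, and ranged from -0.31 to 0.063 with a library left out. The log2 difference of Nras over Hras ranged from 0.69 to 1.15, that of Braf over Araf from -0.47 to -0.16 and that of Map2k1 over Map2k2 from -1.34 to -0.54. The exact sign-flip test over the 4 mice gave p = 0.125, 0.25 and 0.375, where 0.125 is the smallest p that 4 mice allow. The number of called genes on the 6 lists was 16 to 29 under all settings run. It was 29 with DESeq2, which called 35.3% of all genes, and 16 without COL1, where 3206 of all 15142 genes tested were called. Of the 23 called, 11 kept the call under every setting run, 8 lost it with some library left out, and 4 (Abhd17c, Rps6ka4, Mknk1 and Mapk6) lost it only with scaling by library size alone. The block ended the calls of Shoc2, Ywhah and Arrb1 among them and no other of these calls in edgeR. The length of all exons was chosen as an alternative after the data were seen. The 4 libraries per tissue and their spread limit these comparisons.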
